A study of Mus musculus with 21 samples.

Results

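Goblet cells make the mucus that lines the gut, and the genes described here, 35 in all, encode mucins, other secreted goblet cell products, the factors that specify and mature goblet cells, proteins of their secretory pathway, and the enzymes that build sugar chains on mucins. They were taken by symbol from a count table of 25361 genes measured in the cecum of mice, the blind sac where the large bowel begins. The expression of Muc4 was not analysed here, values of the other 34 were read, and 33 had enough counts to be tested. The gene below the count filter was St6galnac1, a sialyltransferase, with 8 counts over all 21 libraries. No gene was chosen by its response to diet, but the set was drawn up with earlier results of these data known.

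All mice were C57BL/6, an inbred strain with no transgene or deletion named in the labels. From 3 weeks of age they ate the Total Western Diet, made to resemble the nutrient intake of people on a Western diet, for 6 weeks. For 3 more weeks they ate that diet with 0% (6 mice), 0.5%, 1.0% or 2.5% broccoli powder (5 mice each), and the question for these genes is whether broccoli in the diet goes with other levels in the cecum. Messenger RNA was sequenced from cecum tissue with all its cell types, so that fewer goblet cells and less RNA per goblet cell cannot be told apart.

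As background, MUC2 is the gel-forming mucin that goblet cells store in granules and release as the mucus layer, while MUC1, MUC3, MUC4 and MUC13 are anchored in the membrane of epithelial cells. ATOH1 commits a progenitor to the secretory lineage, and SPDEF and FOXA3 act in goblet cell maturation. Mucins are folded in the endoplasmic reticulum with the help of AGR2 and are then decorated in the Golgi: GALNT enzymes attach the first sugar to serine or threonine, C1GALT1 with its chaperone COSMC (C1galt1c1) makes core 1, B3GNT6 makes core 3, GCNT enzymes make the branched cores, and sialyltransferases and fucosyltransferases cap the chains.

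Library totals ran from 28514263 to 58594569 counts. Large bowel absorptive markers were abundant in the libraries, with Car1 at a mean of 4319 CPM (counts scaled to the library total times its TMM factor) and Slc26a3 at 883. Of the 10 epithelial markers all were detected, and their summed level ran from 4613 to 7126 CPM. Gastric mucin Muc5ac gave 5 counts in all and Muc5b gave 82. In 6 libraries (0% replicate 5, 0.5% replicates 1 and 4, 1.0% replicate 1, and 2.5% replicates 1 and 2) the 14 small intestine and Paneth cell markers summed to between 405 and 1414 CPM, against 206 to 347 in the other 15. These 6 were picked out in earlier work on the same data, and some values are given with and without them. The mast cell tryptases Tpsb2 and Tpsab1 were near the detection limit, at 68 and 2 counts over all libraries. Other mast cell markers were not as low. Of 10 listed, 5 had enough counts to be tested, and the list summed to between 37.9 and 61.7 CPM. The 3 dose comparisons share the 6 control libraries and are not independent of each other.

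RefSeq (GRCm38.p6) gave 33 promoter windows for 22 of the 35 genes, Muc4 among them, and 3 of these are shown over the 250 bases before the start. Muc2 is shown as the gene the library-to-library comparison is built on. Galnt7 is shown as a gene that varied with it over all 21 libraries, and Spdef as a maturation factor. Members with a higher r to Muc2 than Galnt7, among them C1galt1, had windows too, which are not shown. The windows of Galnt7 and Spdef hold motifs that few of the 33 windows held, as counted below, so they are not typical of the set. The relations of Galnt7 and Spdef to Muc2 are described below with their limits. Capitals mark matches, on either strand, to CANNTG (the E-box that ATOH1 and other helix-loop-helix factors bind), TGTTTAC (a forkhead motif), TGACGT (a motif of the CREB family) or CCGGAT (an ETS-type core that SPDEF prefers).
Muc2, chr7:141690090-141690339, plus strand: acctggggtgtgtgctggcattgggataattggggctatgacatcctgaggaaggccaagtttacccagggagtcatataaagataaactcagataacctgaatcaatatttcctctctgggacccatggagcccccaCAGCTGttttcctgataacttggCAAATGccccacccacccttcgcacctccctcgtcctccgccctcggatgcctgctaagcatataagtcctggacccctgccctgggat
Galnt7, chr8:57653056-57653305, minus strand: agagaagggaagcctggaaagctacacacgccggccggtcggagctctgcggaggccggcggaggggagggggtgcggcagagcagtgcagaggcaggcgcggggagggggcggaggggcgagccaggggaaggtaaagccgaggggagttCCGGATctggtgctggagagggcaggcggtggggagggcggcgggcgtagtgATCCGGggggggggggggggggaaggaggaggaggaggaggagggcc
Spdef, chr17:27728952-27729201, minus strand: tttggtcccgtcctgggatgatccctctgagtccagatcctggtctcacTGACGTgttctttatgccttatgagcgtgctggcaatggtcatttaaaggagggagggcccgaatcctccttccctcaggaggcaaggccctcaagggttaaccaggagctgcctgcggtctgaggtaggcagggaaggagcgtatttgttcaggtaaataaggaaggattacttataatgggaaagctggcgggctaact
The Muc2 window held 2 matches to CANNTG, the Galnt7 window 2 to CCGGAT and the Spdef window 1 to TGACGT, and no capitals of different motifs overlapped in these windows. Of the 33 windows, some of which belong to 1 gene with several starts, 24 held CANNTG, 2 held CCGGAT, 1 held TGACGT and 0 held TGTTTAC. Of 32851 mouse promoter windows of this length, 66.2% held CANNTG, 4.94% held CCGGAT, 6.47% held TGACGT and 3.17% held TGTTTAC. These are matches of letters only.

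Per kilobase of annotated exon, the membrane mucin Muc3 (ENSMUSG00000037390, chr5:137134922-137149322, minus strand, on mm10) had the highest level of the set, a mean of 2419 CPM per kb over 21 libraries. It was followed by Zg16, a lectin-like protein that binds the cell wall of Gram-positive bacteria, at 429 CPM per kb, and by Muc13 at 379. Next came Muc2 at 216, the branching enzyme Gcnt3 at 158, the mucus protein Fcgbp at 104, the mucus-processing protease Clca1 at 99.1 and the sialyltransferase St3gal4 at 57.4 CPM per kb. At the low end of the tested genes stood Gcnt1, another branching enzyme, at 0.924 and Muc1 at 0.300 CPM per kb. Transcription factors sat in the middle, with Atoh1 at 21.1, Foxa3 at 17.7 and Spdef at 11.5 CPM per kb. The Muc3 value rests on a gene model with 1943 exon bases, and a neighbouring model, Muc3a, was counted separately at a mean of 130 CPM, so reads shared by the pair could be split between them. The RefSeq promoter window of Muc3, chr5:137166047-137166296, lies apart from this model. The model may therefore not cover the whole gene, and the level per kb may be too high. The length used for Muc2, 7127 exon bases, is that of the annotated models.

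**Figure D1:**
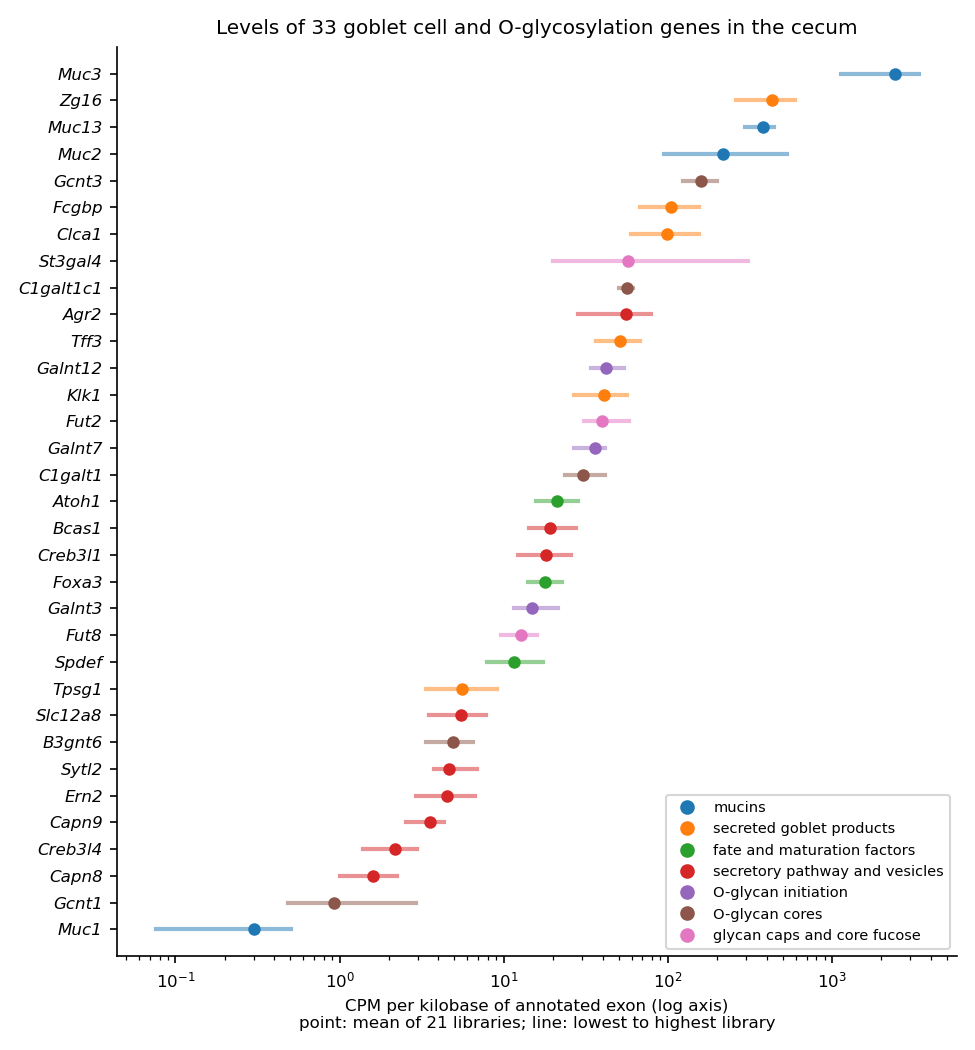
Mean CPM per kilobase of annotated exon over 21 libraries (points, log axis) with the lowest and highest library (lines) for the 33 tested genes, coloured by role. Muc3 sits highest at 2419 and Muc1 lowest at 0.300, and the line of St3gal4 is the longest of the genes above 10 CPM per kb.

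No member passed an adjusted p of 0.05 at any dose in edgeR's quasi-likelihood test with Benjamini-Hochberg adjustment over 15652 genes. The count was 0 of 33 at 0.5%, where 0.00639% of all genes passed, 0 of 33 at 1.0%, where 0% passed, and 0 of 33 at 2.5%, where 0.109% passed. It was also 0 of 33 for the mean of the 3 broccoli diets (0% of all genes), for the slope per 1% broccoli powder (0.147%) and for any difference among the 4 diets (0.0256%). An unadjusted p under 0.05 was reached by 2 members at 0.5% (6.06%, against 7.14% of all genes), by 5 at 1.0% (15.2% against 3.18%) and by 3 at 2.5% (9.09% against 8.43%). For the mean of the broccoli diets it was 4 (12.1% against 6.58%), for the slope 1 (3.03% against 7.32%) and for any difference among diets 3 (9.09% against 6.41%). All of these with a direction were on the side of more RNA on broccoli, the side that held 3.26%, 1.76% and 4.77% of all genes in order of dose, 3.07% for the mean and 4.21% for the slope. At each dose 23 of 33 members (69.7%) had a log2 difference above 0, against 49.2%, 49.4% and 46.9% of all tested genes at 0.5%, 1.0% and 2.5%. For the mean of the 3 broccoli diets it was 26 of 33 against 48.9%. At the 3 doses the median log2 difference of the members was 0.09, 0.12 and 0.05 in that order, and that of all genes was -0.003, -0.002 and -0.011. The members with an unadjusted p under 0.05 at any dose were Muc3, Clca1, Tff3, Tpsg1, Creb3l4 and B3gnt6. The counts by role given below are parts of these member counts, and the same shares of all genes apply to them.

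**Figure D2:**
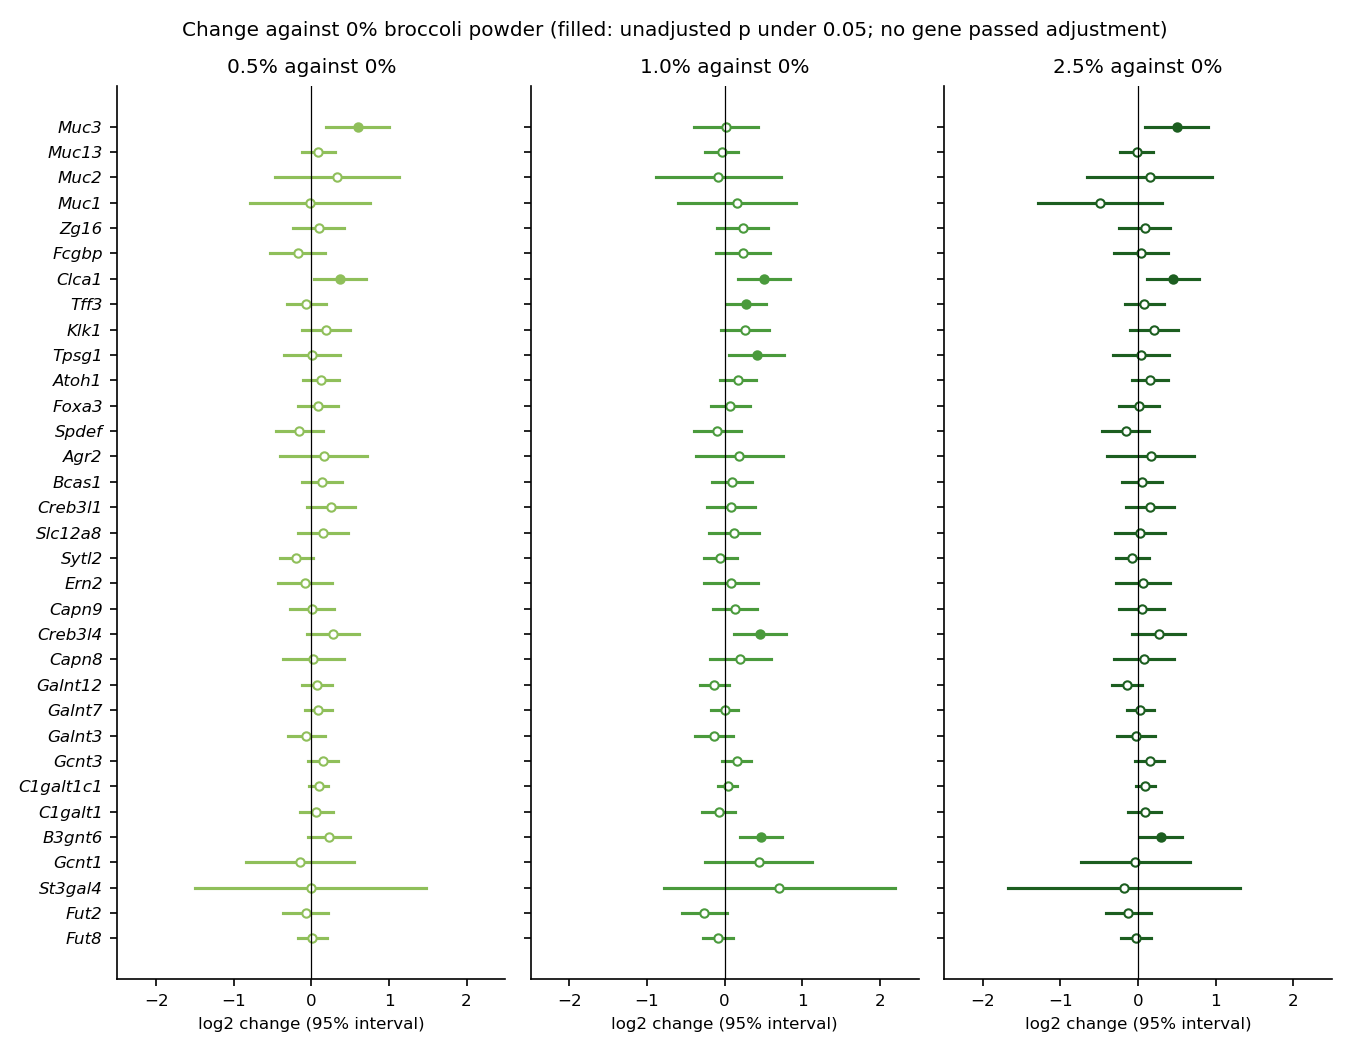
Log2 difference of each dose against 0% (points) with its 95% interval (lines) for 33 genes grouped by role, filled points having an unadjusted p under 0.05 and open points not. The points lie on the right of 0 for 23 of 33 genes in each panel, and the interval of St3gal4 is the widest.

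Of the 4 mucins tested, 1 reached an unadjusted p under 0.05 at 0.5% and at 2.5%, and 0 at 1.0%. That gene was Muc3, a membrane mucin of the enterocyte brush border. At 0% its lowest, median and highest levels were 2198, 3621 and 6374 CPM. Its levels were 6563, 4810.5, 6291, 5422 and 5959 CPM at 0.5%, 5089, 4448, 3716, 2635 and 3580.0 at 1.0% and 5318, 5818, 4286, 5862 and 5837 at 2.5%. All libraries at 0.5% and 4 of 5 at 2.5% lay above 5 of the 6 controls, the exception among the controls being replicate 1, while the libraries at 1.0% overlapped the controls throughout. The log2 difference was 0.60 ± 0.20 (SE; unadjusted p = 0.00657, adjusted p = 0.675) at 0.5%, 0.02 ± 0.20 at 1.0% (adjusted p = 0.999) and 0.50 ± 0.20 at 2.5% (unadjusted p = 0.0202, adjusted p = 0.500). Without 0% replicate 1 the difference at 0.5% was 0.80, with an adjusted p of 0.162. Without the 6 libraries rich in small intestine markers it was 0.61 at 0.5% (unadjusted p = 0.0344, adjusted p = 0.672). At 2.5% it was then 0.51 (unadjusted p = 0.0685, adjusted p = 0.400). Muc3 ran from 4410 to 6563 CPM in those 6 libraries and from 2198 to 6374 in the other 15. The values at the 3 doses were not in order of dose.

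Muc2, the gel-forming mucin (ENSMUSG00000025515, chr7:141690340-141754693, plus strand), ranged from 678 to 3776 CPM over the 21 libraries, a 5.57-fold range. Its control libraries had a lowest, median and highest level of 678, 1044 and 3776 CPM. The highest is replicate 5, which lies above every library on broccoli. Levels were 2394, 1360.0, 2006, 2266 and 989 CPM at 0.5%, 1973, 1261, 1169, 1145 and 1221 at 1.0% and 1410.3, 1963, 1044, 2041 and 1501 at 2.5%, and all 3 groups overlapped the controls. The log2 difference from 0% was 0.33 ± 0.38 at 0.5%, -0.08 ± 0.38 at 1.0% and 0.15 ± 0.38 at 2.5%, with 95% intervals of -0.47 to 1.13, -0.89 to 0.72 and -0.66 to 0.95. With 0% replicate 5 left out, the value at 2.5% was 0.72 (unadjusted p = 0.0114, adjusted p = 0.461), and without all 6 libraries rich in small intestine markers it was 0.66 (unadjusted p = 0.0181, adjusted p = 0.253). The size of the Muc2 difference thus rests on 1 control library, and no setting brought it past the adjusted threshold.

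Muc13, a membrane mucin of the large bowel, varied little, from 895 to 1343 CPM, with log2 differences of 0.09 ± 0.10, -0.04 ± 0.10 and -0.02 ± 0.10 in order of dose. Muc1 was barely detected, from 0.18 to 1.19 CPM. Its control levels had a lowest, median and highest value of 0.447, 0.726 and 1.06 CPM. Those on broccoli were 0.806, 0.588, 1.03, 0.401 and 0.814 CPM at 0.5%, 0.333, 0.768, 0.845, 0.966 and 1.19 at 1.0% and 0.996, 0.666, 0.177, 0.525 and 0.271 at 2.5%. The groups overlapped at every dose and the interval at 2.5% ran from -1.29 to 0.31 on the log2 scale, which holds differences of both signs.

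The 6 genes grouped as secreted products include Tpsg1, whose protein is membrane-bound. Of these 6, 1 gene reached an unadjusted p under 0.05 at 0.5%, 3 at 1.0% and 1 at 2.5%. A log2 difference above 0 was found for 4 of 6 at 0.5% and for all 6 at 1.0% and at 2.5%. At 2.5% Tff3, Fcgbp, Zg16 and Tpsg1 lay close to 0, and Tff3, Fcgbp and Zg16 turned sign in some other settings. Clca1 (ENSMUSG00000028255, chr3:145003817-145032776, minus strand) had the lowest p of the 6 for the mean of the 3 broccoli diets. Its lowest, median and highest control levels were 226, 289 and 426 CPM. On broccoli they were 384, 383, 377.5, 338 and 443 CPM at 0.5%, 581, 344, 361, 314 and 512 at 1.0% and 438, 358, 371, 468 and 403 at 2.5%. All 15 broccoli libraries lay above the control mean of 298 CPM, and 5 of the 15 lay above the highest control, so each group still overlapped the controls. The log2 difference was 0.37 ± 0.16 (unadjusted p = 0.0312, adjusted p = 0.685) at 0.5%, 0.50 ± 0.16 (unadjusted p = 0.00484, adjusted p = 0.999) at 1.0% and 0.45 ± 0.16 (unadjusted p = 0.0100, adjusted p = 0.425) at 2.5%. For the mean of the 3 broccoli diets it was 0.44 ± 0.13 (unadjusted p = 0.00286, adjusted p = 0.651), and the slope was 0.15 ± 0.07 per 1% powder (unadjusted p = 0.0457, adjusted p = 0.669). In the 15 libraries low in small intestine markers the difference was 0.44 (adjusted p = 0.672) at 0.5% and 0.48 (adjusted p = 0.271) at 2.5%. At 1.0% it was lower than over all libraries, 0.37 (unadjusted p = 0.0506, adjusted p = 0.9997). The slope in those 15 was 0.17 (unadjusted p = 0.0540, adjusted p = 0.407). Related Clca genes were counted separately, among them Clca4a at a mean of 938 CPM and Clca3b at 87.6.

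Tff3, a small trefoil peptide released with mucus, had control levels with a lowest, median and highest value of 21.7, 23.8 and 27.4 CPM. On broccoli its levels were 31.7, 21.8, 24.6, 17.9 and 18.9 CPM at 0.5%, 33.2, 27.6, 26.9, 26.01 and 32.2 at 1.0% and 24.8, 22.5, 26.1, 31.3 and 22.5 at 2.5%. At 1.0% 3 of 5 libraries lay above all controls, and the log2 difference was 0.28 ± 0.12 (unadjusted p = 0.0277, adjusted p = 0.999). At 0.5% and 2.5% it was -0.06 ± 0.12 and 0.08 ± 0.12, and the libraries at 0.5% lay both above and below all controls.

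Tpsg1, a membrane-bound tryptase, had control levels with a lowest, median and highest value of 5.24, 6.81 and 8.86 CPM. Its levels on broccoli were 8.59, 6.17, 7.59, 8.02 and 5.46 CPM at 0.5%, 12.7, 8.89, 8.79, 9.97 and 7.03 at 1.0% and 7.55, 7.24, 7.19, 9.88 and 4.67 at 2.5%. The 1.0% group had 3 of 5 libraries above all controls and a log2 difference of 0.41 ± 0.17 (unadjusted p = 0.0249, adjusted p = 0.999), and the differences at the other doses were 0.01 ± 0.17 and 0.04 ± 0.17. Exons of Tpsg1 overlap those of Cacna1h on the opposite strand, and the sources used here do not give the strand setting, so reads of the pair may not be separated.

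Fcgbp, a large protein bound to MUC2 in mucus, had control levels with a lowest, median and highest value of 711, 992 and 1619 CPM. On broccoli they were 1013, 925, 973, 999.9 and 808 CPM at 0.5%, 1621, 1328, 1114, 957 and 1285 at 1.0% and 1268, 910.4, 1036, 1339 and 931 at 2.5%. All groups overlapped, with log2 differences of -0.18 ± 0.17, 0.24 ± 0.17 and 0.04 ± 0.17. The 2 highest libraries, 0% replicate 5 and 1.0% replicate 1, are also the 2 highest in small intestine markers.

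Zg16 had control levels with a lowest, median and highest value of 328, 508 and 688 CPM. Its levels were 751, 525, 540.5, 436 and 435 CPM at 0.5%, 714, 589.7, 511, 483 and 654 at 1.0% and 610.2, 505, 509, 581 and 466 at 2.5%, and these overlapped the controls. The log2 differences were 0.10 ± 0.16, 0.23 ± 0.16 and 0.09 ± 0.16. Klk1, a kallikrein protease, ran from 28.8 to 60.8 CPM with differences of 0.19 ± 0.15, 0.26 ± 0.15 and 0.21 ± 0.15. Of its 13 Klk1b relatives in the table, all had a mean of at most 0.227 CPM.

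**Figure D3:**
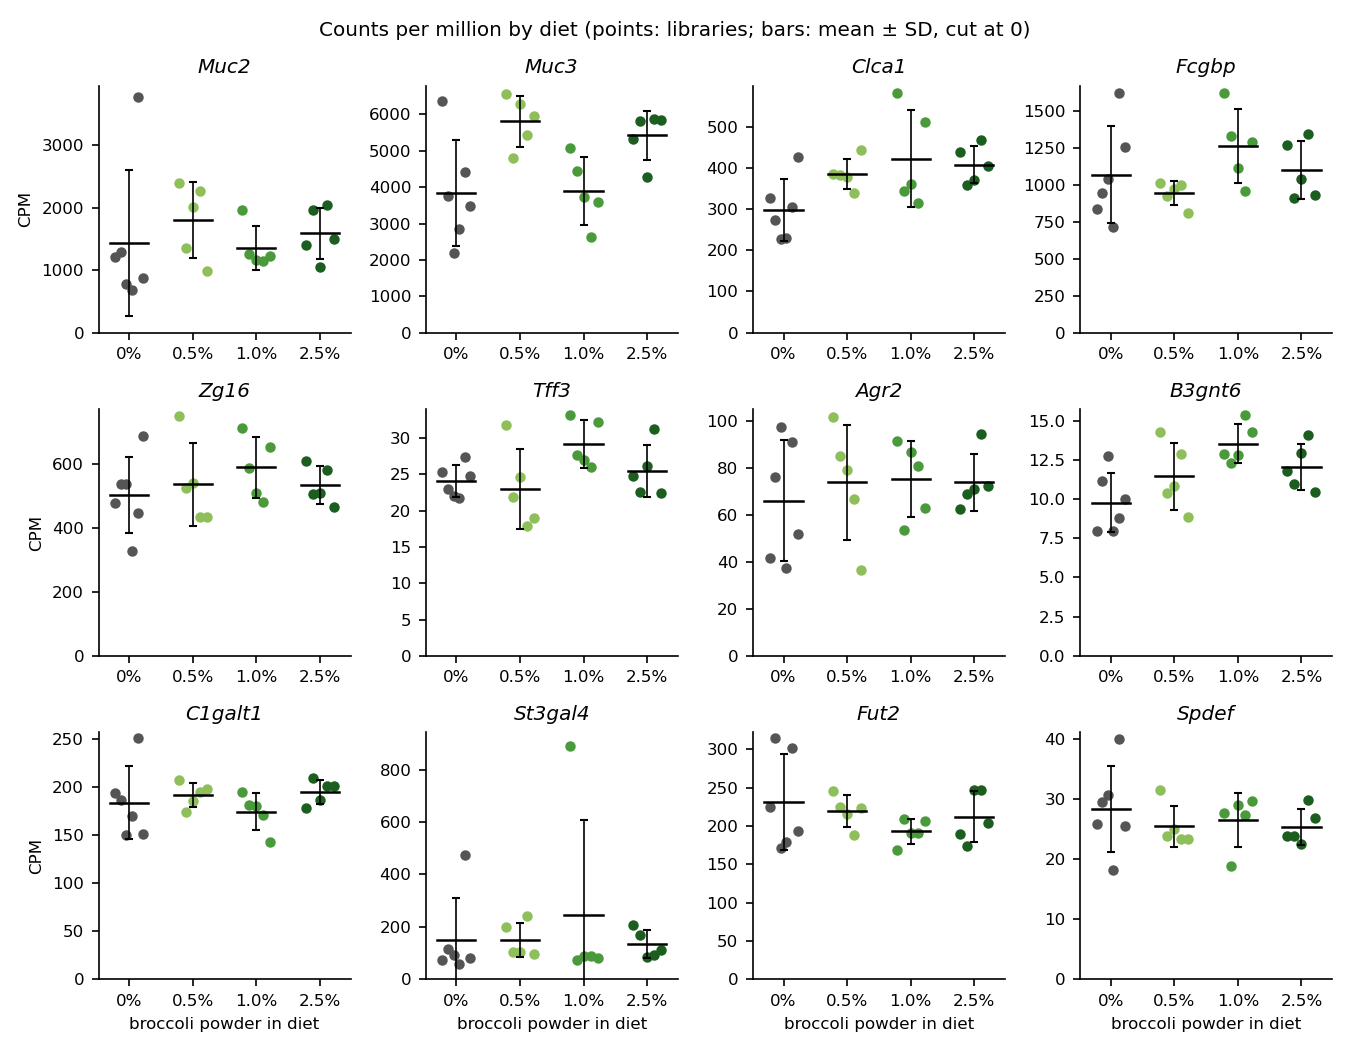
CPM of 12 genes in each of 21 libraries (points) by percent of broccoli powder, with the mean and SD of each diet (bars). For Clca1 all 15 broccoli libraries lie above the control mean of 298 CPM, while for Muc2 and St3gal4 single libraries, among them 0% replicate 5, stand far above the rest of their diet.

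The 3 fate and maturation factors had 0 members with an unadjusted p under 0.05 at any dose. Atoh1 had control levels with a lowest, median and highest value of 33.3, 40.3 and 54.5 CPM. Its levels on broccoli were 50.3, 46.1, 46.9, 40.2 and 42.7 CPM at 0.5%, 47.5, 41.0, 48.1, 54.0 and 43.5 at 1.0% and 44.8, 42.3, 45.6, 60.5 and 37.2 at 2.5%. The log2 differences were 0.12 ± 0.11, 0.17 ± 0.11 and 0.15 ± 0.11, and the upper ends of their 95% intervals were 0.36, 0.41 and 0.39. At 2.5% the value was 0.25 (unadjusted p = 0.0258, adjusted p = 0.519) without 0% replicate 5 and 0.30 (unadjusted p = 0.0274, adjusted p = 0.290) without the 6 libraries rich in small intestine markers, and the lowest with 1 library left out was 0.0340.

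Spdef had control levels with a lowest, median and highest value of 18.2, 27.6 and 39.9 CPM. On broccoli its levels were 31.4, 23.8, 25.0, 23.3 and 23.4 CPM at 0.5%, 27.7, 18.7, 28.9, 27.3 and 29.6 at 1.0% and 23.7, 23.8, 22.4, 29.8 and 26.9 at 2.5%. Every broccoli library fell within the range of the controls. The log2 differences were -0.16 ± 0.15, -0.09 ± 0.15 and -0.16 ± 0.15, below 0 at each dose, and the value at 2.5% was 0.02 without those 6 libraries rich in small intestine markers. Foxa3 ran from 28.6 to 46.2 CPM with differences of 0.09 ± 0.12, 0.07 ± 0.12 and 0.02 ± 0.12.

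Among the 9 genes of the secretory pathway and vesicles, 1 reached an unadjusted p under 0.05 at 1.0% and 0 at the other doses. That gene was Creb3l4, a membrane-bound transcription factor of the endoplasmic reticulum. Its control levels had a lowest, median and highest value of 2.34, 2.98 and 4.24 CPM, and on broccoli they were 4.31, 3.43, 3.43, 4.36 and 3.10 at 0.5%, 4.20, 4.19, 4.98, 3.19 and 4.45 at 1.0% and 4.04, 3.96, 3.01, 4.29 and 3.201 at 2.5%. Of 15 broccoli libraries 14 lay above the control mean of 3.07 CPM, and 5 lay above all controls. The log2 difference was 0.45 ± 0.16 at 1.0% (unadjusted p = 0.0101, adjusted p = 0.999), 0.27 ± 0.16 at 0.5% and 0.27 ± 0.16 at 2.5%, and 0.33 ± 0.13 for the mean of the 3 broccoli diets (unadjusted p = 0.0197, adjusted p = 0.695).

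Agr2, the disulfide isomerase that MUC2 needs for folding, had control levels with a lowest, median and highest value of 37.6, 64.1 and 97.5 CPM. Its levels on broccoli were 102, 84.9, 79.1, 66.7 and 36.7 CPM at 0.5%, 91.6, 53.6, 86.8, 80.8 and 62.9 at 1.0% and 62.7, 69.0, 71.1, 94.7 and 72.1 at 2.5%. The lowest library of the series was on 0.5% and the controls spanned almost the whole range, so that the differences of 0.16 ± 0.27, 0.19 ± 0.27 and 0.16 ± 0.27 lay inside the spread between mice. The other 7 genes of this group are Ern2 (an endoplasmic reticulum stress sensor of mucous cells), Creb3l1, Sytl2 (a tether of secretory vesicles), the calpain proteases Capn8 and Capn9, Bcas1 and the transporter Slc12a8. Their log2 differences ran from -0.19 ± 0.10 (Sytl2 at 0.5%) to 0.25 ± 0.15 (Creb3l1 at 0.5%).

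Of the 3 genes that start the O-glycan, Galnt3, Galnt7 and Galnt12, 0 reached an unadjusted p under 0.05 at any dose, and log2 differences ran from -0.14 (Galnt12 at 2.5%) to 0.09 (Galnt7 at 0.5%). Galnt7 was among the steadiest of the set. Its control levels had a lowest, median and highest value of 140.5, 191 and 216 CPM, and its levels on broccoli were 208, 184, 203, 194 and 195 at 0.5%, 191, 196, 167, 204 and 163 at 1.0% and 169.8, 206, 183, 196 and 186 at 2.5%. The 95% interval of its difference was -0.15 to 0.20 at 2.5%.

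Of the 5 core genes, 0 reached an unadjusted p under 0.05 at 0.5%, 1 at 1.0% and 1 at 2.5%, and in both cases it was B3gnt6, the core 3 synthase (ENSMUSG00000074004, chr7:98192417-98199481, minus strand). Its control levels had a lowest, median and highest value of 7.96, 9.40 and 12.7 CPM. On broccoli they were 14.3, 10.4, 10.8, 12.9 and 8.84 CPM at 0.5%, 12.9, 12.3, 12.8, 15.4 and 14.3 at 1.0% and 11.8, 10.9, 12.96, 14.1 and 10.5 at 2.5%. At 1.0% 4 of 5 libraries lay above all controls, and over the 3 doses 14 of 15 lay above the control mean of 9.77 CPM and 8 of 15 above all controls. The log2 difference was 0.23 ± 0.13 at 0.5% (adjusted p = 0.707), 0.47 ± 0.13 at 1.0% (unadjusted p = 0.00143, adjusted p = 0.999) and 0.30 ± 0.13 at 2.5% (unadjusted p = 0.0302, adjusted p = 0.531). For the mean of the 3 broccoli diets it was 0.33 ± 0.11 (unadjusted p = 0.00458, adjusted p = 0.651). At 1.0% the adjusted p ranged from 0.795 to 1.00 over the alternatives run.

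C1galt1, the core 1 synthase, had control levels with a lowest, median and highest value of 149, 178 and 251 CPM. Its levels on broccoli were 207, 174, 185, 195 and 197 CPM at 0.5%, 194, 181, 180.5, 171 and 143 at 1.0% and 178, 209, 186, 201 and 201 at 2.5%. With log2 differences of 0.06 ± 0.10, -0.08 ± 0.10 and 0.09 ± 0.10, its 95% intervals lay within 0.5 of 0 at each dose. At 2.5% the value was 0.20 (unadjusted p = 0.0273, adjusted p = 0.526) without 0% replicate 5 and 0.21 (unadjusted p = 0.0490, adjusted p = 0.354) without the 6 rich in small intestine markers. Its chaperone C1galt1c1 was the steadiest gene of the set, with a 1.22-fold range over 21 libraries. C1galt1c1 had control levels with a lowest, median and highest value of 73.2, 76.8 and 85.9 CPM, and levels on broccoli of 88.4, 83.5, 86.4, 75.8 and 83.4 at 0.5%, 79.2, 79.0, 78.1, 82.3 and 83.7 at 1.0% and 74.4, 89.0, 87.0, 83.0 and 84.1 at 2.5%. Its interval at 2.5% was -0.03 to 0.22, the narrowest of the set.

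Gcnt1 and Gcnt3 make branched cores. Gcnt1 had control levels with a lowest, median and highest value of 2.81, 5.04 and 7.57 CPM, and levels on broccoli of 4.18, 4.70, 4.34, 4.73 and 4.77 at 0.5%, 16.7, 3.42, 3.42, 5.74 and 4.91 at 1.0% and 6.88, 5.67, 4.20, 3.56 and 4.37 at 2.5%. A single library, 1.0% replicate 1, stood above all the rest, and the difference at 1.0% was 0.44 ± 0.33. Gcnt3 ran from 535 to 855 CPM, with log2 differences of 0.15 ± 0.09, 0.15 ± 0.09 and 0.15 ± 0.09.

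Among the 4 genes of glycan caps and core fucose, 0 of the 3 tested reached an unadjusted p under 0.05. Fut2, the fucosyltransferase that makes the H antigen on gut mucins, had control levels with a lowest, median and highest value of 171, 209 and 315 CPM. Its levels on broccoli were 246, 224, 215, 188 and 224 CPM at 0.5%, 168, 209, 190.2, 191 and 206 at 1.0% and 190.0, 174, 247, 247 and 203 at 2.5%. All but 1 of these lay within the range of the controls, and the log2 differences were -0.07 ± 0.14, -0.26 ± 0.14 and -0.12 ± 0.14. The value at 2.5% was 0.10 without those 6 libraries rich in small intestine markers. Fut8, which adds core fucose to N-glycans and not to O-glycans, ran from 76.2 to 126 CPM with differences between -0.09 and 0.01.

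St3gal4, a sialyltransferase (ENSMUSG00000032038, chr9:35046576-35119268, minus strand), had the largest spread of the set. Its control levels had a lowest, median and highest value of 58.5, 86.6 and 474 CPM. On broccoli they were 197, 104, 104, 241 and 96.8 CPM at 0.5%, 893, 72.1, 86.4, 87.8 and 80.02 at 1.0% and 208, 167, 83.3, 91.4 and 112 at 2.5%. High libraries occurred in every diet, with a 15.3-fold range over the series, and the log2 differences of -0.01 ± 0.71, 0.71 ± 0.70 and -0.18 ± 0.71 came with wide intervals, -0.78 to 2.19 at 1.0%. The high libraries were the 6 with high small intestine markers, with 167 to 893 CPM of St3gal4, while none of the other 15 exceeded 116 CPM. These 2 ranges do not overlap. In those 6 libraries Muc2 ran from 1410 to 3776 CPM, against 678 to 2041 in the other 15, and Clca1 from 305 to 581 against 226 to 512, so both overlapped. The part of small intestine cells in the St3gal4 levels was not tested.

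**Figure D4:**
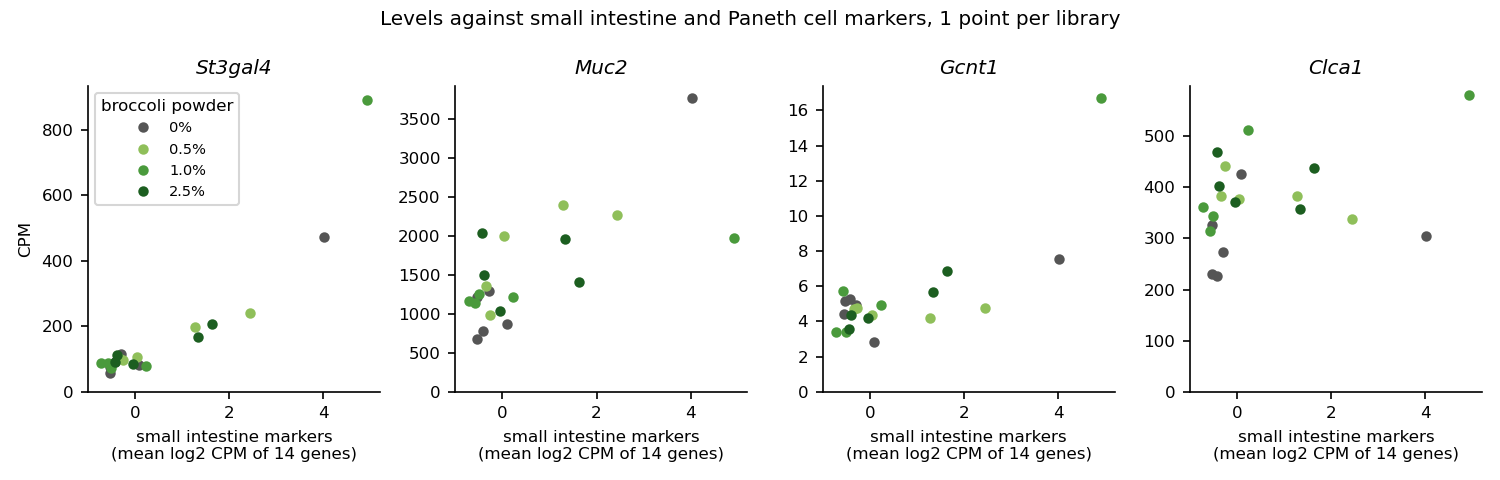
CPM of St3gal4, Muc2, Gcnt1 and Clca1 against the mean log2 CPM of 14 small intestine and Paneth cell markers, 1 point per library, coloured by percent of broccoli powder. The libraries with high markers are those with 167 to 893 CPM of St3gal4, whereas Clca1 at 305 to 581 CPM in the same libraries overlaps the rest.

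The SD of log2 CPM within diets was above the range of the 4 diet means for 22 of 33 members and for 56.0% of all tested genes, although an SD of single mice and a range of means of 5 or 6 mice are different measures. The median SD was 0.26 for the members and 0.21 for all tested genes, and 24 of 33 members lay above the median of all genes. The 4 largest values were 1.04 for St3gal4, 0.63 for Muc1, 0.61 for Muc2 and 0.55 for Gcnt1. Among tested genes of a similar level these SDs lay at percentiles 99.9, 37.9, 99.4 and 97.8. The SD of the barely detected Muc1 was thus not high for its level. The 2 smallest SDs were 0.15 for Galnt7 and 0.083 for C1galt1c1. Without those 6 libraries rich in small intestine markers, the SD was 0.25 for St3gal4, 0.39 for Muc2 and 0.31 for Gcnt1. The spread sets what could be seen. The standard error of a dose difference had a median of 0.15 over the members, from 0.059 for C1galt1c1 to 0.71 for St3gal4, and the 95% interval lay within 0.5 of 0 for 23, 18 and 23 of 33 members at 0.5%, 1.0% and 2.5%. For the rest, a difference beyond 0.5 on the log2 scale in at least 1 direction lay inside the interval.

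**Figure D5:**
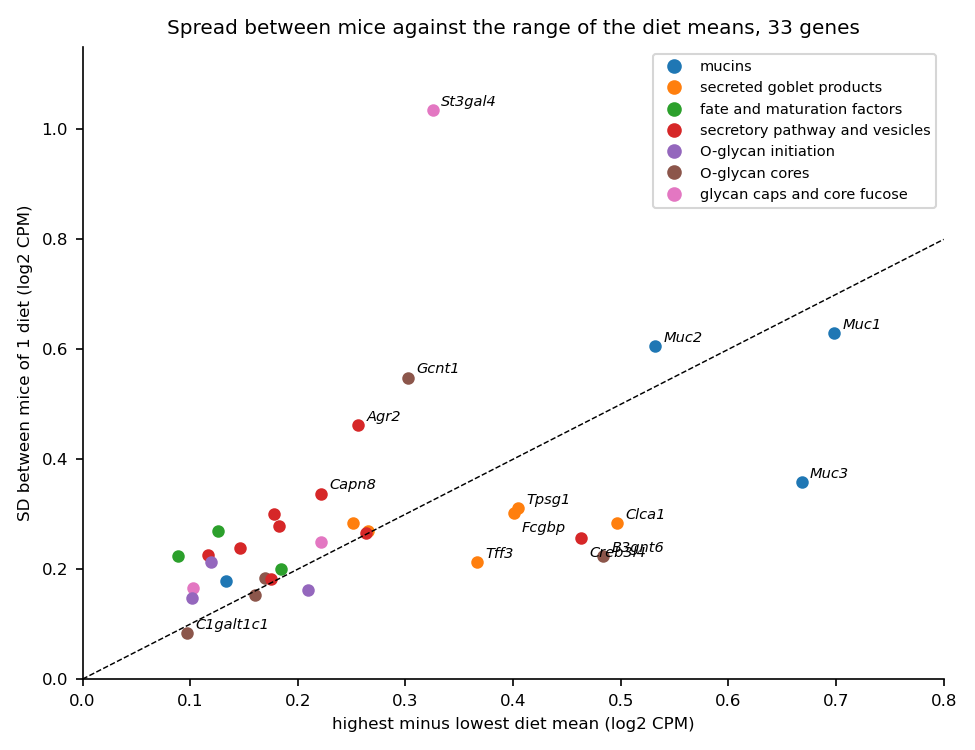
SD of log2 CPM between mice of 1 diet against the highest minus the lowest diet mean for 33 genes, coloured by role, with a dashed line where both are equal. For the 22 genes above the line the SD exceeds the range of the 4 diet means, with St3gal4 at an SD of 1.04 and C1galt1c1 at 0.083.

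The members were also compared with Muc2 across the 21 libraries, to describe which of them varied with it from mouse to mouse. Of 32 relations of log2 CPM, 30 had a Pearson r above 0, and 15 had a Benjamini-Hochberg adjusted permutation p under 0.05, all 15 positive. By Spearman's rho 8 did so, and after centring by diet 19 by Pearson's r. St3gal4 is in each of these counts although its libraries formed separate clusters, and without it they were 14, 7 and 18. The share of all 15652 tested genes passing the same test is not given here, so the counts cannot be set against it. By r over all tested genes, the members of the 15 relations passing by Pearson's r ranked from 30 (C1galt1) to 789 (Galnt3). Genes outside the set were closer to Muc2 by r than any member, among them Zc3h12d at 0.90, Cps1 at 0.83 and Sis at 0.79. Apoa4, 1 of the 14 small intestine and Paneth cell markers, was also closer, at rank 29. Among the members C1galt1 had the highest r, 0.76 (permutation p = 6e-05, adjusted p = 0.00192), with rho of 0.70 (permutation p = 0.00067, adjusted p = 0.0107). Slc12a8 followed with r of 0.74 and rho of 0.61 (adjusted permutation p = 0.00208 and 0.0264), and Creb3l1, a stress transducer of secretory cells, with r of 0.67 and rho of 0.58 (adjusted permutation p = 0.00696 and 0.0327). No r over all libraries is given for St3gal4, whose r was 0.30 within the 6 libraries high in small intestine markers and 0.55 within the other 15 (permutation p = 0.0340, adjusted p = 0.121 in the 15). Of the 6 genes grouped as secreted products Klk1 was among the 15, with r of 0.58 and rho of 0.63 (adjusted permutation p = 0.0229 and 0.0264). For Fcgbp r was 0.47 and for Tpsg1 0.36 (adjusted permutation p = 0.0584 and 0.152). For Tff3 and Clca1 it was 0.29 and for Zg16 0.21 (adjusted permutation p = 0.228, 0.228 and 0.391).

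Fewer relations passed when libraries were left out. Without the 2 farthest from the Muc2 median, 0% replicates 5 and 4, 5 of the relations had an adjusted p under 0.05, those of C1galt1, Muc3, Ern2 and Galnt7 and that of St3gal4. C1galt1 then had r of 0.67, Muc3 of 0.69, Ern2 of 0.61 and Galnt7 of 0.59, while Slc12a8 had 0.55 and Creb3l1 0.57 (adjusted permutation p = 0.0651 and 0.0524). For Spdef r went from 0.51 to 0.07, for Sytl2 from 0.56 to 0.18 and for Galnt3 from 0.50 to 0.21, so these rest on those 2 libraries. In the 15 libraries low in small intestine markers 0 relations passed, the lowest adjusted permutation p being 0.0582. With fewer libraries the r itself was not always lower there. It was 0.52 for C1galt1 (adjusted permutation p = 0.132), but 0.71 for Capn9, 0.69 for Muc3 and 0.68 for Foxa3, and higher than over all libraries for 14 of 31 relations. Capn9 and Foxa3 had not passed over all libraries. Of the relations that had, St3gal4 left out, r was higher there only for Muc3, Klk1, Atoh1 and Bcas1. Among those with a lower r were Sytl2 at 0.16, Spdef at 0.31, Galnt3 at 0.37 and Galnt7 at 0.40 (adjusted permutation p = 0.236 for Galnt7). All the points of such a relation share library scaling and the cell makeup of the tissue sample.

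Other genes of the pathway were taken from lists drawn up with earlier results of these data known. Of 40 other O-glycosylation genes tested, 0 passed the adjusted threshold at any dose. At an unadjusted p under 0.05 were 3 on the higher and 2 on the lower side at 0.5%, 0 at 1.0%, and 2 on each side at 2.5%. These are 12.5%, 0% and 10% of the list, against 7.14%, 3.18% and 8.43% of all genes in order of dose. The sialyltransferase St3gal1 had a log2 difference of 0.58 ± 0.13 at 2.5% (unadjusted p = 0.00027, adjusted p = 0.109) and 0.50 ± 0.13 at 0.5% (adjusted p = 0.597). B3gnt2, a chain-extending enzyme, was at 0.45 ± 0.16 (adjusted p = 0.424) and the sialyltransferase St6galnac6 at -0.26 ± 0.10 (adjusted p = 0.488), both at 2.5%. Of 17 other goblet cell genes tested, 0 passed, and 1, 2 and 1 had an unadjusted p under 0.05 in order of dose. These are 5.88%, 11.8% and 5.88% of that list, to be set against the same shares of all genes. The C-type lectin Reg4 was at 0.28 ± 0.11 at 1.0% (adjusted p = 0.999), the membrane mucin Muc20 at 0.62 ± 0.24 at 0.5% and 0.61 ± 0.24 at 2.5% (adjusted p = 0.675 and 0.500), and the channel Best2 at 0.51 ± 0.25 at 1.0% (adjusted p = 0.999). Of 16 genes of secretory fate, 0 passed, and 2, 0 and 2 (12.5%, 0% and 12.5%) had an unadjusted p under 0.05. Klf4, a transcription factor of goblet cell and surface epithelial differentiation, was at 0.41 ± 0.11 at 2.5% (adjusted p = 0.219), the Notch ligand Jag1 at -0.29 ± 0.08 at 2.5% (adjusted p = 0.260) and the receptor Notch2 at -0.23 ± 0.09 at 0.5% (adjusted p = 0.675). None of these values passed the test.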

How the data were processed

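Per the labels' protocols, a stranded ligation kit was used to make messenger RNA libraries from the cecum of 21 mice. Raw counts for all libraries were deposited in a single table, made by the authors on the build mm10 per the submitters' processing notes. How reads were aligned, which tool and annotation counted them and whether strand was used is not given in the sources used here, so reads shared by related or overlapping genes may be split in ways that cannot be traced. Identifiers were matched to symbols, positions and exon lengths with GENCODE mouse release M21, which named 25268 of 25361 genes.

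The test was that of edgeR 4.0.16, run in R 4.3.3 (TMM scaling, filterByExpr by diet, robust quasi-likelihood fit, two-sided), in 1 fit of all 21 libraries, with Benjamini-Hochberg adjustment over the 15652 genes kept. Calls needed an adjusted p below 0.05. All p-values of diet comparisons, adjusted and unadjusted, are from that fit unless another setting is named. Log2 CPM used a prior count of 2, correlations 1e+05 permutations, and each ± of a log2 difference is a standard error. The number of relations to Muc2 was 32, the tested members other than Muc2. The members and lists were chosen with earlier results of these data known. Per-library values are given for 11 genes chosen for their role, for members with an unadjusted p under 0.05 at a dose or for the slope, and for the 4 most and 2 least variable members. Fut8, whose values are given by range, acts on N-glycans.

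Mice are numbered in the labels and were taken as separate animals, with no cage or date named. Replicate numbers follow the order of deposit and pair nothing. No 2 libraries agreed within sampling noise (lowest chi-square per degree of freedom 17.1). Alternatives were DESeq2 1.42.0, limma 3.58.1 (voom), other scalings, no count filter, covariates and libraries left out.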

Additional observations from a re-analysis of the deposited data

Results flagged for a closer look

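A library was looked at again where it lay apart from the rest of its diet by Dixon's test at the 95% level. Of 132 groups of libraries (33 genes in 4 diets) 8 met this, against 6.6 that chance would give, so the number as such is close to chance. Of the 8, 4 were in 1.0% replicate 1 and 2 in 0% replicate 5, the 2 libraries with the highest small intestine markers (summed 1414 and 895 CPM).

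Muc2 stood at 3776 CPM in 0% replicate 5, where the other controls ran from 678 to 1290, and at 1973 CPM in 1.0% replicate 1, where the others ran from 1145 to 1261. St3gal4 stood at 474 CPM in 0% replicate 5 (others 58.5 to 116) and at 893 CPM in 1.0% replicate 1 (others 72.1 to 87.8). Also in 1.0% replicate 1, Gcnt1 was at 16.7 CPM (others 3.42 to 5.74) and Ern2 at 18.4 CPM (others 12.4 to 13.1). Spdef was at 31.4 CPM in 0.5% replicate 1, above the others at 23.3 to 24.9, and at 18.7 CPM in 1.0% replicate 2, below the others at 27.3 to 29.6. The part of small intestine cells in these values was not tested.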

How the results depend on the processing

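The count of members passing the adjusted threshold was 0 under every alternative run, in all 6 comparisons, including each of the 21 libraries left out in turn. Over the same alternatives the number of all tested genes passing at 2.5% ran from 0 to 121. The number of members with an unadjusted p under 0.05 moved more, at 2.5% from 2 to 8 around the 3 reported. The share of all genes at that level is not given for these alternatives, so the move cannot be set against it. The count of relations to Muc2, St3gal4 included, was 5 in place of 15 without the 2 libraries farthest from its median and 0 without the 6 high in small intestine markers, where fewer libraries were used. At 2.5%, log2 differences close to 0 turned sign in some settings. With the epithelial markers as a covariate Tff3 was at -0.0238 and Fcgbp at -0.0587, with library totals as the scaling Fcgbp was at -0.02235, and without the 6 libraries Spdef was at 0.0236 and Fut2 at 0.0984. With single libraries left out the ranges were -0.00396 to 0.123 for Tff3, -0.0540 to 0.197 for Fcgbp and -0.0099 to 0.197 for Zg16. The cause of these turns was not tested. The differences of Muc3, Clca1, B3gnt6, Tpsg1, Creb3l4 and Tff3 (at 1.0%) with an unadjusted p under 0.05 kept their sign in all settings run. No paired analysis was possible because the labels give no replicate numbers, and those used here follow only the order of deposit. The animal numbers follow the diets, apart from 3 animals numbered above 70, so numbering and diet cannot be told apart. The fewest counts behind a member over all libraries were 610 for Muc1 and 8 for St6galnac1, and small differences of these were not detectable at this depth.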

Other observations

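Markers of the other secretory lineages of the epithelium were also read in these libraries, as summed CPM with no test. Enteroendocrine cell markers had a median of 76.5 CPM at 0%, 87.4 at 0.5%, 84.7 at 1.0% and 102 at 2.5%, with Neurod1 at 0 counts. Tuft cell markers had medians of 43.9, 46.1, 40.5 and 43.1 CPM in the same order. Markers of deep crypt secretory cells, the goblet-like neighbours of stem cells in the large bowel, had medians of 567, 581, 709 and 594 CPM. Most of this sum was Reg4, Spink4 and Agr2, with means of 402, 84.3 and 71.9 CPM. Agr2 is a member and the others are on the list of other goblet cell genes, so the sum is not independent of the values above. The ranges of the diets overlapped for each of these lists. Smooth muscle markers had medians of 2669, 3029.8, 2471 and 2636 CPM, and ran from 1917 to 4000 CPM within the 0% diet alone. B cell markers summed to at most 9.88 CPM in any library.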
